A study of Mus musculus with 16 samples.

Results

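The subject is the interaction of tissue with genotype in mice lacking Tff2: genes whose knockout effect differed in size or sign between the fetal pancreas and adult islets. All 16 libraries of the series entered it, so the members are 16 of 16 samples, joined over the 24091 gene symbols that both count tables share. Polyadenylated RNA was sequenced from whole pancreata at embryonic day 16.5 (E16.5) and from islets of male mice aged 60 weeks, freed with collagenase, separated on a density gradient and picked by hand. The series' design text gives the islet donors as 1 year old. Controls were Tff2fl/fl (E16.5 pancreata 02, 08 and 13; islets 052, 826, 829, 857 and 858), which carry the floxed alleles without Cre. Knockouts (KO) were Pdx1:Cre;Tff2fl/fl (E16.5 pancreata 01, 18 and 19; islets 055, 122, 803, 812 and 845), in which the Pdx1 promoter drives Cre in the pancreatic epithelium. Each library had its own animal number and the groups held 3, 3, 5 and 5 libraries. No control with Cre but without the floxed alleles was analysed here, so effects of Cre and of Tff2 loss cannot be told apart, nor can tissue, age, dissection and, in part, sex.

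Tff2 encodes trefoil factor 2, a small secreted peptide of mucosal epithelia. At E16.5 the pancreatic epithelium is giving rise to acinar, duct and endocrine cells, and endocrine cells pass through a progenitor state marked by the transcription factor Neurog3 before they make hormones. Isolated adult islets hold mostly endocrine cells, which package peptide hormones in dense granules and share many genes of exocytosis and membrane excitability with neurons. Whole fetal pancreas also holds mesenchyme, vessels, nerves and ganglia. In bulk tissue, fewer cells of a type and less RNA per cell cannot be told apart.

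Total counts ran from 14866194 to 22699934 in pancreata and from 22595400 to 32385042 in islets, and levels are given as counts per 1000000 reads (CPM) after scaling by trimmed mean of M values (TMM). Endocrine markers were abundant in islets, where the 8 hormone genes summed to at least 153768 CPM in every library, and acinar enzyme genes were abundant in the pancreata. The Y-linked genes Ddx3y, Kdm5d and Uty marked 1 of the 6 pancreata, KO 18, as male, like the islet donors (Ddx3y 119 CPM, against at most 0.154 CPM in the other pancreata). They passed the test of the difference and are set aside as signs of sex.

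The effect of the knockout in each tissue is the log2 fold change of KO against control, and the difference is the pancreas effect minus the islet effect, all from 1 edgeR quasi-likelihood fit over the 16 libraries. Of 15823 genes tested, 1137 (7.19%) had a difference past an adjusted p of 0.05. The pancreas effect lay above the islet effect for 514 genes (3.25%) and below it for 623 (3.94%). In the same fit 931 genes (5.88%) rose and 1139 (7.2%) fell in pancreata, while 22 (0.139%) rose and 8 (0.0506%) fell in islets. An unadjusted p under 0.05 was reached by 3502 genes for the difference, by 4232 for the pancreas effect and by 1031 for the islet effect.

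Most genes with a called difference were changed in the fetal pancreas alone by the threshold. Of the 1137, 1032 also passed in pancreata and not in islets, 16 passed in islets and not in pancreata, 3 passed in both and 86 passed in neither. Passing in 1 tissue did not itself establish a difference: of 2070 genes called in pancreata, 1035 had a called difference and 1035 did not. The size of the estimate was larger in pancreata for 1072 of the 1137 genes and larger in islets for 65. The estimates had opposite signs for 846, but these genes were picked by their difference, which favours opposite signs. The median size of the islet estimates was 0.10 among the genes above and 0.05 among those below, so their signs say little. Both effects were called with opposite sign in 3 genes. Among the 514 genes with the pancreas effect above, the median effect was 1.13 in pancreata and -0.08 in islets, and 295 differed by at least 1 on the log2 scale. The 623 genes below were spread over a narrower range, with median effects of -0.38 and 0.05, and 41 of them differed by at least 1. Over all genes tested the medians were -0.02 in pancreata and 0 in islets. Across genes, which are not independent replicates, the effects in the tissues had a Pearson correlation of -0.02 and a Spearman correlation of -0.04.

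**Figure D1:**
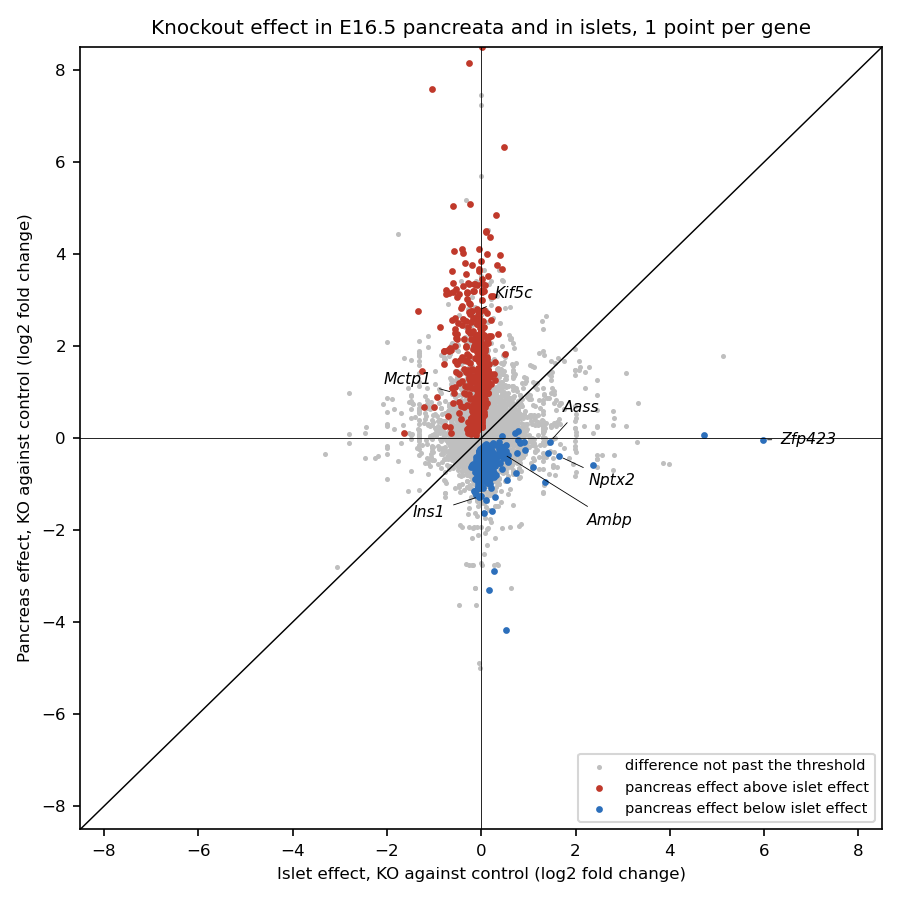
Each point is 1 gene, with its islet effect on the x axis and its pancreas effect on the y axis, both as log2 fold change of KO against control. Points on the diagonal have equal effects. Red genes (514) and blue genes (623) had a called difference and spread mainly along the vertical axis, while Zfp423 lies far out along the horizontal one; 4 genes lie outside the axes.

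The count rested partly on single pancreata. It was 515 without control 02, 680 without control 08 and 721 without KO 01, and 871 to 1186 without any other library. The pancreas count was 916 when the tissues were fitted apart, and the islet count was 84 with DESeq2 and 55 with limma-voom. Scaling to library totals gave 608 genes above and 299 below, and scaling each tissue to the sum of its pan-epithelial genes gave 8382 above and 67 below with a median difference of 0.42 over all genes. Directions given here are therefore relative to the bulk of genes in each library.

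The targeted gene had close estimates in both tissues, and it passed the test in pancreata only. Tff2 (chr17:31141062-31144282, minus strand, mm10) was at 34.6, 20.4 and 31.4 CPM in control pancreata 02, 08 and 13 and at 2.38, 8.82 and 1.42 CPM in KO pancreata 01, 18 and 19. In islets it was at 1.19, 3.14, 1.05, 5.05 and 2.64 CPM in controls 052, 826, 829, 857 and 858 and at 0, 0.496, 0.513, 0.384 and 0.0923 CPM in KO 055, 122, 803, 812 and 845. No KO value reached a control value in either tissue. The effect was -2.81 (SE 0.574, adjusted p = 0.00471) in pancreata and -3.06 (SE 0.685, adjusted p = 0.118) in islets. Their difference was 0.25 with a 95% interval from -1.63 to 2.14 (adjusted p = 0.92), which does not show that the effects were alike.

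Among the gene lists examined, those of hormones and beta cell identity had the largest shares of members below the diagonal. In E16.5 pancreata 7 of 8 hormone genes, 17 of 19 genes of beta cell identity and 9 of 19 endocrine progenitor genes fell. Of all genes tested 7.2% fell there. None of these members passed in islets, which is near the share of all genes in islets (0.139% rose and 0.0506% fell). Of 8 hormone genes tested, 6 had a called difference, all below, and the other two were Ppy and Ghrl. The list's median effect was -1.13 in pancreata and -0.10 in islets. Of 19 genes of beta cell identity 15 had a called difference, all below, with median effects of -0.69 and -0.04. The endocrine progenitor list gave 8 of 19 below and 0 above, with islet estimates from -0.22 to 2.45 and a median of 0.06. Below the diagonal were 3.94% of all genes tested. The progenitor list summed to 885 to 925 CPM in control and 760 to 849 CPM in KO pancreata. In islets its sum went the other way, with 3229 to 3520 CPM in controls and 3621 to 3858 CPM in KO. These sums were not tested.

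**Figure D2:**
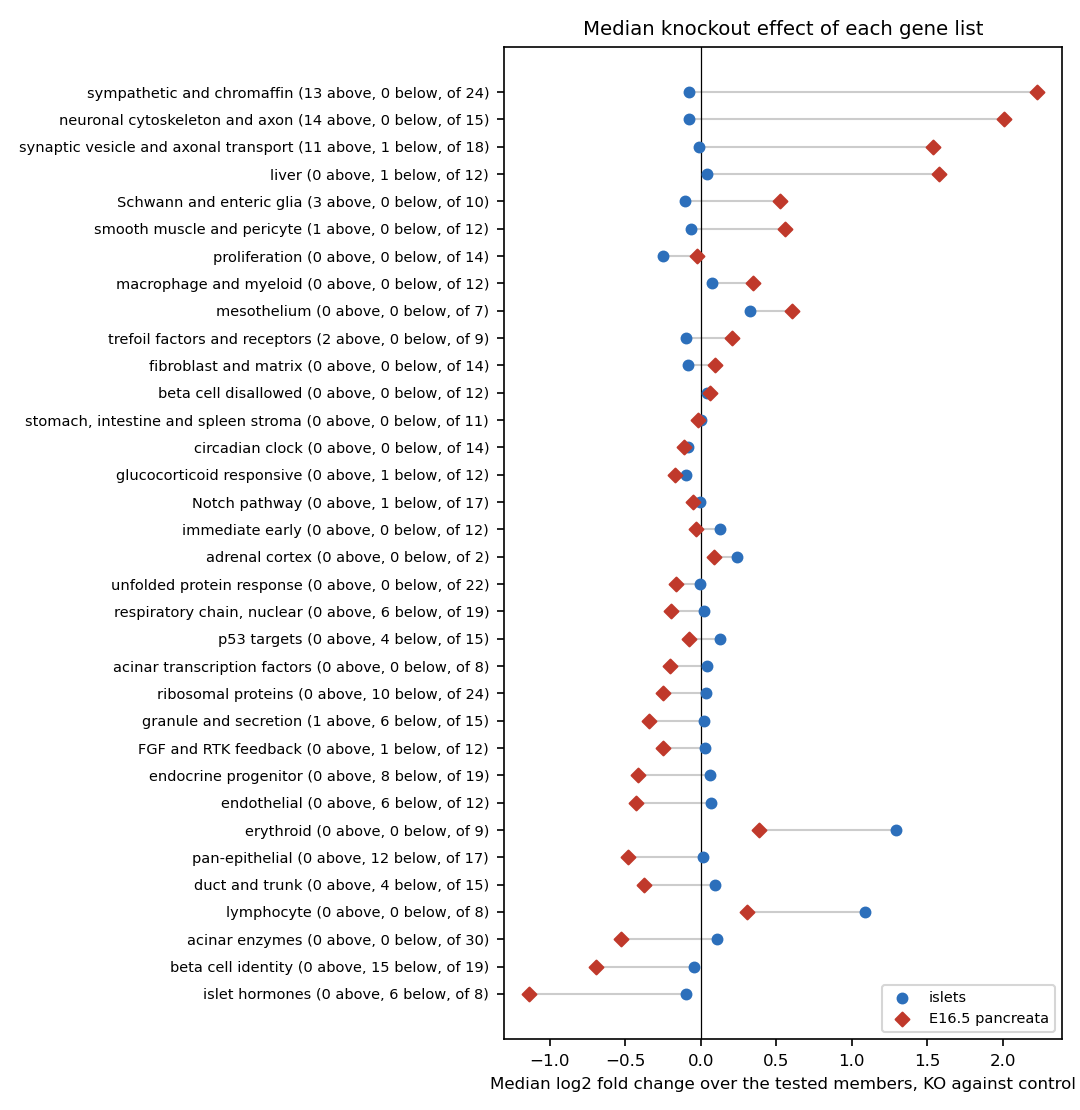
For each gene list, the median log2 fold change of KO against control over its tested members in E16.5 pancreata (red diamonds) and in islets (blue circles), with the number of members whose difference was called above or below in brackets. Hormone and beta cell lists have pancreas medians left of 0 with islet medians near 0, and neuronal lists have pancreas medians above 1.5.

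Ins1 (chr19:52264297-52265009, plus strand, mm10), 1 of the insulin genes of the mouse, was at 332, 251 and 375 CPM in control pancreata 02, 08 and 13 and at 135, 152 and 110.5 CPM in KO pancreata 01, 18 and 19. Islets ranged over 37518 to 46213 CPM (median 39869.6) in controls and 34763 to 45083 CPM (median 41208) in KO. All KO pancreata were below all control pancreata, while the islet groups overlapped almost fully. The difference for Ins1 was -1.23 (SE 0.179, adjusted p = 0.00126), from a pancreas effect of -1.27 and an islet effect of -0.04 (SE 0.109). Ins2, the other insulin gene, differed by -1.05 (SE 0.18, adjusted p = 0.00324). The sequences of Ins1 and Ins2 are close, so the division of reads between them is uncertain.

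Other islet peptides were lower in KO pancreata too. Iapp, which encodes the amyloid peptide released with insulin, was at 302, 265 and 328 CPM in control and 167, 158 and 116 CPM in KO pancreata, and differed by -0.998 (SE 0.153, adjusted p = 0.00178). Sst, which encodes somatostatin of delta cells, was at 75.7, 55.4 and 80.8 and 23.6, 41.9 and 34.7 CPM and differed by -1.06 (SE 0.203, adjusted p = 0.00637). Islets held Sst at 1573 to 1681 CPM in controls and 1391 to 1809 CPM in KO. Gcg, which encodes glucagon of alpha cells, differed by -1.13 (adjusted p = 0.0446), a call lost in 12 of the 16 fits that left out 1 library, all but those without pancreas KO 01 and 19, islet control 858 and islet KO 055 (adjusted p up to 0.103) and with separate fits, the robust fit and library totals (up to 0.0866). Pyy, which encodes peptide YY and was chosen after its values were seen, differed by -1.02 (adjusted p = 0.0319), lost when any 1 of pancreas control 02 and 13, pancreas KO 01 and 18 and islet control 826, 857 and 858 was left out (adjusted p up to 0.0885) and with limma-voom and library totals (up to 0.0565). Ppy had a like estimate of -1.05 with an interval from -2.12 to 0.01 and did not pass (adjusted p = 0.232). Ghrl, which encodes ghrelin and was chosen after its values were seen, had an islet estimate of -0.79 (SE 0.171, adjusted p = 0.0964) and fell in pancreata (-0.92, adjusted p = 0.00202). The difference for Ghrl of -0.13 did not pass (interval -0.64 to 0.38).

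To set these genes beside the neuronal ones described further on, the 250 bases before the start of transcription are shown for a hormone gene that fell with the beta cells' list (Ins1), a hormone gene of delta cells (Sst), and 2 genes of noradrenaline synthesis that rose (Dbh, Th). They are RefSeq sequences of GRCm38.p6, the build called mm10, and 12128 of the tested genes have such a window. Capitals mark each TAAT, the core bound by many homeodomain factors (Pdx1 among them), and each TGACGTCA, the cAMP response element, searched on both strands. The motifs do not overlap each other in these windows.
Ins1 (chr19:52264047-52264296, plus strand): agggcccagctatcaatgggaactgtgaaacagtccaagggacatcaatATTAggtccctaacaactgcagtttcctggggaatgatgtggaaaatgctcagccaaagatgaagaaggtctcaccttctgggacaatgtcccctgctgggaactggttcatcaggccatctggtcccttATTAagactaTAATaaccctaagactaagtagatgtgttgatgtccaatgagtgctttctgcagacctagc
Sst (chr16:23890845-23891094, minus strand): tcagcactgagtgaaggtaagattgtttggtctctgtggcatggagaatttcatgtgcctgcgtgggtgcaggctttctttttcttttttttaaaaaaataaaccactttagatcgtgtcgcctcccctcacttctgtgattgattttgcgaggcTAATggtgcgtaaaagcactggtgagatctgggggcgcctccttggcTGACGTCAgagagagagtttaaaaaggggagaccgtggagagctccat
Dbh (chr2:27165257-27165506, plus strand): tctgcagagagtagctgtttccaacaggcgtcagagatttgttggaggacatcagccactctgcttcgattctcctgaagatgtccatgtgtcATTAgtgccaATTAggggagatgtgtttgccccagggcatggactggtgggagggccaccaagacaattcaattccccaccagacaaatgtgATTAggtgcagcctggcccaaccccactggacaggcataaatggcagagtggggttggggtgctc
Th (chr7:142899996-142900245, minus strand): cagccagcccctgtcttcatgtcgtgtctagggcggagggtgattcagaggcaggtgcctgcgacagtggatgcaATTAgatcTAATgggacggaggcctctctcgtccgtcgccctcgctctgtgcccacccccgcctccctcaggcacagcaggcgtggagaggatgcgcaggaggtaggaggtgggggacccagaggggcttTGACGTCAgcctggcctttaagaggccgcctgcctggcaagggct

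The homeodomain core occurred 3 times before Ins1, 1 time before Sst, 3 times before Dbh and 2 times before Th. Of 32851 windows of the same length, 54.9% held it, and 40.7% of the 15383 windows of tested genes did. The cAMP response element was found 1 time each before Sst and before Th, and 1.55% of all windows and 2.49% of those of tested genes held it. Genes with opposite pancreas effects thus shared both motifs. A match is a run of letters and not a measured binding site.

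Genes that give beta cells their identity fell together in the fetal pancreas. Pcsk2, the prohormone convertase that matures insulin and glucagon, was at 176, 172 and 201 CPM in control and 111, 91.2 and 83.9 CPM in KO pancreata. Islets held it at 5137 to 5757 CPM in controls and 5436 to 5731 CPM in KO. Its difference of -0.94 (SE 0.113, adjusted p = 0.000424) came from a pancreas effect of -0.94 and an islet effect within -0.15 to 0.14 (95% interval). The KO pancreata lay below every control and the islet groups overlapped. Nkx6-1, a transcription factor of beta cells, was at 36.6, 35.2 and 34.3 and 24.6, 20.3 and 20.6 CPM in control and KO pancreata and differed by -0.74 (SE 0.0907, adjusted p = 0.000424). Abcc8, the sulfonylurea receptor subunit of the beta cell potassium channel, differed by -0.80 (SE 0.112, adjusted p = 0.000855).

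Mafa, a transcription factor of mature beta cells, was low in pancreata, with 7.06, 5.07 and 5.35 CPM in controls and 2.89, 2.52 and 1.84 CPM in KO. Adult islets held it at 165 to 247 CPM in controls and 171 to 226 CPM in KO. Its difference was -1.26 (SE 0.246, adjusted p = 0.00698), which did not pass with limma-voom (0.0939). G6pc2, the islet glucose-6-phosphatase, and Slc2a2, the glucose transporter GLUT2, differed by -0.99 and -0.76 (adjusted p = 0.00235 and 0.00256). Pdx1, the gene whose promoter drives the Cre, differed by -0.51 (SE 0.13, adjusted p = 0.025), lost without pancreas control 08 (adjusted p = 0.0767) and with separate fits and library totals (up to 0.0901). Mnx1, a homeobox factor, was among the 8 largest differences below at a mean of at least 1 CPM in each tissue, at -1.30 (SE 0.237, adjusted p = 0.00464).

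**Figure D3:**
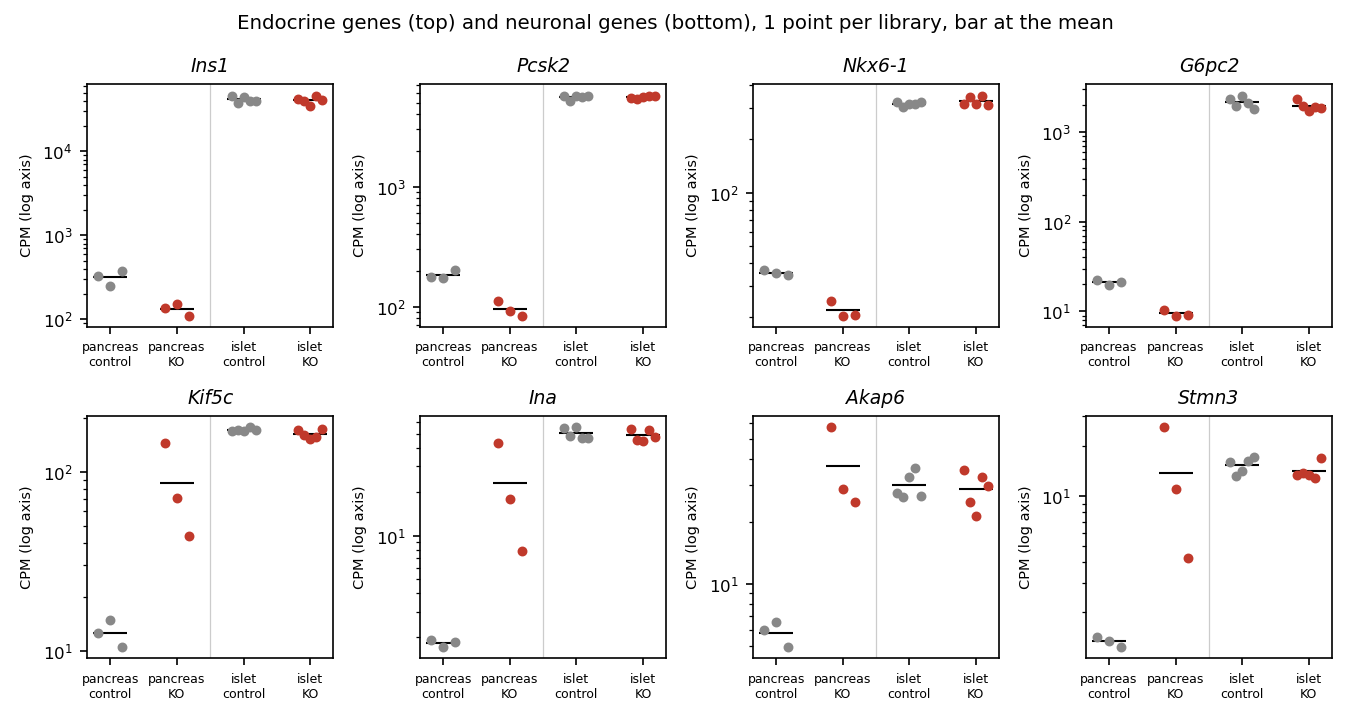
CPM of 4 endocrine genes (top) and 4 neuronal genes (bottom) in each library on log axes, with a bar at each group's mean. KO pancreata lie below control pancreata for Ins1, Pcsk2, Nkx6-1 and G6pc2 and above them for Kif5c, Ina, Akap6 and Stmn3, with KO 01 highest, while islet groups overlap in all 8 panels.

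The progenitor stage differed in the same direction. Neurog3 was at 50.9, 48 and 49.4 CPM in control pancreata and 32.9, 31.4 and 29.1 CPM in KO pancreata, and all KO values lay below the controls. In islets Neurog3 was low, at 2.48 to 4.54 CPM in controls and 2.77 to 6.94 CPM in KO. The difference of -1.12 (SE 0.274, adjusted p = 0.0227) was lost without control 02 (0.0634). The pancreas call of Neurog3 was lost when any 1 of the control or KO pancreata was left out (adjusted p up to 0.106). Library totals and the pan-epithelial scaling ended it too. Under the alternatives its pancreas effect ran from -0.71 to -0.23, so part of the difference came from an islet estimate above 0 that did not pass. Insm1 and Pax6, transcription factors that act after Neurog3, differed by -0.73 and -0.71 (adjusted p = 0.000846 and 0.00178). Hes6, a target of Neurog3, differed by -0.52 (adjusted p = 0.0034). Reads of Pax6 overlap those of Elp4 by position, and those of Pdx1 overlap Plut.

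Granule genes were mixed, with 6 of 15 below and 1 above (3.94% and 3.25% of all genes tested). Chga and Scg2, which encode granins, differed by -0.82 (SE 0.136, adjusted p = 0.0027) and -0.98 (SE 0.165, adjusted p = 0.00294). Rab27a, a small GTPase that tethers granules, differed by -0.34 (adjusted p = 0.00663). The exception above was Snap25, a membrane fusion protein of neurons and endocrine cells that was chosen after its values were seen, at 6.73, 7.58 and 8.02 CPM in control and 34.3, 18.5 and 9.75 CPM in KO pancreata. Its difference was 1.43 (SE 0.334, adjusted p = 0.0176), lost without pancreas control 02 (adjusted p = 0.0643) and with separate fits (0.0744).

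Genes with the lowest p below the diagonal were also ones that islets express. Hepacam2, an adhesion molecule, was at 23.1, 23.5 and 25.1 CPM in control and 14.4, 12.7 and 12.2 CPM in KO pancreata and differed by -0.88 (SE 0.099, adjusted p = 0.000424). Scgn, which encodes the calcium binding protein secretagogin, differed by -0.83 (SE 0.101). Abcb9, a lysosomal peptide transporter, differed by -0.99 (SE 0.106), with a pancreas effect of -0.81 and an islet effect of 0.18 that did not pass (adjusted p = 0.39). Stard10, a lipid transfer protein of granules, was at 149.8, 150.3 and 139 and 99, 104 and 97.7 CPM in control and KO pancreata and at 119 to 128 and 120.5 to 125 CPM in control and KO islets. Its levels were thus similar in size in both tissues, and the groups were apart only in pancreata, with a difference of -0.56 (SE 0.0593, adjusted p = 0.000343). Ildr1, a tricellular junction protein, and Ripply3, a transcriptional repressor, differed by -0.65 and -0.85 (adjusted p = 0.000424 for each).

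Of all genes tested, 8.37% were at least 4-fold higher in control islets than in control pancreata. The share was 18.1% among the 623 genes below and 37.2% among the 514 above. The control levels enter both this ratio and the difference by which the genes were picked. A low control pancreas or high control islet level favours both a high ratio and a place above, so these shares only describe. Genes that islets express more strongly than fetal pancreas thus occurred on both sides of the diagonal.

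Pan-epithelial genes were lower in KO pancreata as well. Of 17 pan-epithelial genes tested 12 had a called difference, all below, where 3.94% of all genes tested were below. Their median effects were -0.48 in pancreata and 0.01 in islets. Their summed level was 2556 to 2992 CPM in control and 2012 to 2097 CPM in KO pancreata, and 1633 to 1754 CPM in control and 1661 to 1752 CPM in KO islets. Krt18, a keratin of simple epithelia, was at 478, 472 and 424 CPM in control and 277, 352 and 316 CPM in KO pancreata and differed by -0.64 (adjusted p = 0.0167), lost without pancreas control 02 (adjusted p = 0.0533). Cldn3, a tight junction claudin that overlaps Wbscr25 by position, differed by -0.80 (SE 0.124, adjusted p = 0.0019), and Cldn7 and Spint1 by -0.57 and -0.47. Epcam, the epithelial adhesion molecule, differed by -0.35 (adjusted p = 0.0402), a call lost in 10 of the 16 fits that left out 1 library, all but those without pancreas control 13, pancreas KO 01, islet control 052 and 829 and islet KO 803 and 812 (adjusted p up to 0.117) and with separate fits and library totals (up to 0.162).

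Since epithelial markers moved with genotype in the pancreata, each list was also read relative to the pan-epithelial sum. On that scale 0.423% of all genes tested were below and 53% above, with a median difference of 0.42. There 4 of 8 hormone genes stayed below (median -0.62), and 6 of 19 beta cell identity genes were below and 1 above (median -0.20). The progenitor list of 19 had 2 below and 3 above (median 0.01), so its share above was under that of all genes. The differences of Ins1, Ins2 and Pcsk2 were then -0.81, -0.63 and -0.51 (adjusted p = 0.00423, 0.02 and 0.0065). Of the genes named so far Slc2a2, Pdx1, Neurog3, Insm1, Pax6, Hes6, Chga, Rab27a, Gcg, Pyy, Stard10, Ildr1, Krt18, Cldn7, Spint1 and Epcam lost the call on that scale, and the differences for Rab27a, Epcam and Ghrl turned to 0.10, 0.09 and 0.30. The pancreas effects of Pdx1, Hes6, Rab27a and Epcam, all below 0 with TMM scaling, turned to 0.04, 0.02, 0.09 and 0.09.

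**Figure D4:**
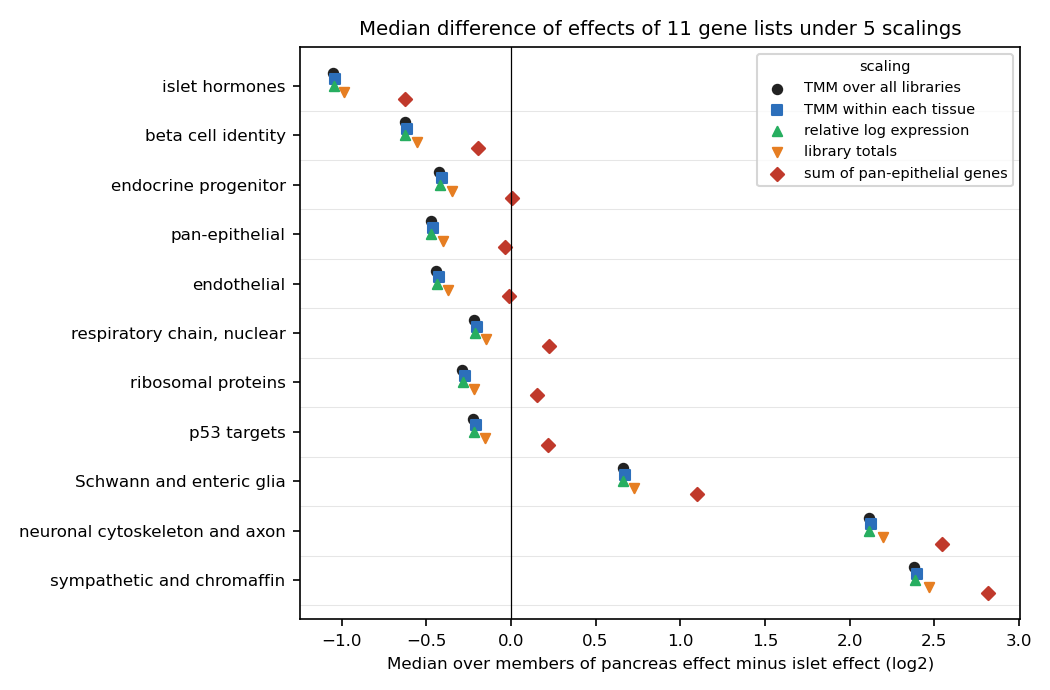
Median over each list of the pancreas effect minus the islet effect (log2), for 11 lists under 5 ways of scaling the libraries. The first 4 scalings fall close together, and scaling to the pan-epithelial sum (red diamonds) moves every list to the right, leaving hormone genes at -0.62 and taking ribosomal and respiratory genes past 0.

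Duct and trunk genes gave 4 of 15 below, where 3.94% of all genes tested were below. Anxa4, an annexin of ducts, differed by -0.62 (adjusted p = 0.0019). That call was lost on the pan-epithelial scale, where its pancreas effect of -0.35 became 0.09, and its pancreas call was also lost with library totals (0.0582). Glis3, a zinc finger factor of ducts and beta cells, differed by -0.46 (adjusted p = 0.00607), also lost on the pan-epithelial scale. Car2, a carbonic anhydrase of ducts, was at 13.6, 8.84 and 14.5 CPM in control and 48.3, 21.2 and 27 CPM in KO pancreata and rose there, a call lost when any 1 of pancreas control 08 and pancreas KO 01 was left out (adjusted p up to 0.0609). Its difference of 0.94 (interval -0.31 to 2.19) was not called. None of 30 acinar enzyme genes had a called difference (7.19% of all genes tested had one), though their median was -0.62. Ctrb1, a chymotrypsinogen, was at 39008, 31893 and 37095 CPM in control and 14347, 28124 and 23658 CPM in KO pancreata, and its difference of -0.77 had an interval from -2.46 to 0.91. Members of the acinar families share reads, so their division is uncertain.

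Ribosomal and respiratory genes differed by small amounts in 1 direction. Of 24 ribosomal protein genes 10 were below and 0 above, and of 19 nuclear genes of the respiratory chain 6 were below and 0 above. Among all genes tested 3.94% were below. Rpl4 and Rpl32 differed by -0.31 and -0.41 (adjusted p = 0.0104 and 0.0114), and lost the call and turned to 0.13 and 0.03 on the pan-epithelial scale. Atp5o, Ndufv1 and Cox4i1, subunits of the ATP synthase, complex I and cytochrome c oxidase, differed by -0.42, -0.32 and -0.34 and likewise turned to 0.02, 0.12 and 0.09. The call was also lost for Rpl4 with separate fits (0.0723) and for Ndufv1 with library totals (0.054). Near-identical copies of ribosomal genes make the counts of single members uncertain. Endothelial genes had 6 of 12 below, among them Eng, Flt1 and Plvap at -0.71, -0.57 and -0.82 (adjusted p = 0.00631, 0.00925 and 0.0139). These 3 receptors and membrane proteins of vessels lost the call on the pan-epithelial scale, and Eng overlaps Fpgs by position. The Plvap call was also lost without pancreas control 02 (adjusted p = 0.0533) and with separate fits (0.053).

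Among the gene lists examined, the neuronal ones had the most members above the diagonal, and most of these members rose in KO pancreata. Above the diagonal were 3.25% of all genes tested, most of which belong to no list. None passed in islets, which is near the share of all genes tested there (0.139% rose and 0.0506% fell). Of 15 genes of neuronal cytoskeleton and axon 14 had a called difference, all above, with median effects of 2.01 in pancreata and -0.08 in islets. The sympathetic and chromaffin list gave 13 of 24 above and 0 below, with medians of 2.22 and -0.08. Single islet estimates ran from -0.68 to 0.35 in the neuronal list and from -1.05 to 0.92 in the sympathetic list. Of 18 genes of synaptic vesicles and axonal transport, a list added after these data were seen, 11 were above and 1 below. Without KO 01, the 3 lists had 13, 12 and 9 members above and the medians of the difference were 1.47, 1.77 and 0.92, against 2.11, 2.38 and 1.50 with it. On the pan-epithelial scale 15, 18 and 17 members were above, where 53% of all genes tested were above.

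The summed levels differed among the KO pancreata, with KO 01 highest and KO 19 lowest. The summed level of the neuronal cytoskeleton list was 298 to 321 CPM in control pancreata and 1412, 727 and 448 CPM in KO 01, 18 and 19. The sympathetic list summed to 311 to 358 CPM in controls and to 1051, 596 and 439 CPM in KO 01, 18 and 19. In islets the neuronal list summed to 1008 to 1118 CPM in controls and 1039 to 1096 CPM in KO. KO 01 also stood apart in the liver list, at 1814 CPM against 454 to 666 CPM in the other pancreata, and the part of neighbouring tissue in these values was not tested. Adrenal cortex genes, a list added after these data were seen, summed to at most 7.01 CPM in any library.

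Kif5c (chr2:49619314-49774778, plus strand, mm10), a kinesin of axonal transport, was at 12.6, 15 and 10.5 CPM in control pancreata 02, 08 and 13 and at 144, 71.1 and 43.7 CPM in KO pancreata 01, 18 and 19. Islets held it at 169 to 177 CPM in controls and 153 to 173 CPM in KO. All KO pancreata lay above all controls, and the highest came close to the islet level. The difference for Kif5c was 2.84 (SE 0.348, adjusted p = 0.000424), from a pancreas effect of 2.77 and an islet effect of -0.07 (interval -0.50 to 0.35). It was 1 of 6 genes above whose difference exceeded 2-fold by a test of that minimum. Akap6, an anchor of protein kinase A, was another, at 5.95, 6.53 and 4.94 CPM in control and 57.2, 28.7 and 24.8 CPM in KO pancreata, with a difference of 2.73 (SE 0.343). Ina, the intermediate filament internexin of neurons, went from 1.92, 1.71 and 1.85 to 43.5, 17.9 and 7.8 CPM and differed by 3.72 (SE 0.534, adjusted p = 0.00113).

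Stmn3, a regulator of microtubules, was at 13.1 to 17.2 CPM in control and 12.8 to 16.8 CPM in KO islets. In pancreata it was at 1.43, 1.36 and 1.23 CPM in controls and 25.9, 11 and 4.27 CPM in KO, and the difference was 3.49 (SE 0.549, adjusted p = 0.0019). The islet groups overlapped, and KO 01 reached a higher level than any islet library. Some genes varied little among the KO pancreata. Negr1, a neuronal adhesion molecule, was at 4.53, 4.57 and 5.4 CPM in control and 9.06, 9.96 and 9.17 CPM in KO pancreata and differed by 1.02 (SE 0.102, adjusted p = 0.000343). Efna5, an ephrin ligand, was at 33.3, 31 and 35.1 and 62.7, 58.7 and 59.3 CPM and differed by 0.96 (SE 0.124). Ctnnd2, a catenin of neurons, and Atp8a1, a phospholipid flippase, differed by 1.45 and 0.87 (adjusted p = 0.000424 for both).

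Filament genes of peripheral neurons had islet estimates below 0 that did not pass. Prph, which encodes peripherin, was at 7.91, 6.48 and 5.97 CPM in control and 100.1, 45.5 and 24.3 CPM in KO pancreata. The islet values were 4.19 to 11.3 CPM (median 6.89) in controls and 1.73 to 7.8 CPM (median 5.45) in KO, and these groups overlapped. Prph differed by 3.58 (SE 0.619, adjusted p = 0.0034) and Nefl, the light neurofilament, by 3.84 (SE 0.74, adjusted p = 0.0066). Their islet effects of -0.52 and -0.68 did not pass (adjusted p = 0.913 and 0.91).

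Genes of noradrenaline synthesis and uptake had few reads in control pancreata, and 2 of them had few in islets too. Dbh, which converts dopamine to noradrenaline, had 3, 6 and 6 reads in control pancreata and 1813, 615 and 329 reads in KO 01, 18 and 19. In islets it had 1, 1, 0, 34 and 2 reads in controls 052, 826, 829, 857 and 858 and 5, 1, 8, 1 and 3 reads in KO 055, 122, 803, 812 and 845. Slc6a2, the noradrenaline transporter, had 3, 10 and 4 reads in control and 3142, 1037 and 444 reads in KO pancreata, and 18 and 15 reads in all over the control and KO islets. The pancreas effects were 7.59 (SE 0.83) and 8.15 (SE 0.741). With so few islet reads no islet fold change is given for either gene. Their differences passed (adjusted p = 0.00572 and 0.0281), for Dbh not without islet control 857, which held 34 of the 38 control reads (0.258), for Slc6a2 not in the 4 fits without pancreas control 02 or islet control 826, 857 or 858 (up to 0.195) or with the robust fit (0.0528), and for neither with limma-voom (0.0661 and 0.116).

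Th, tyrosine hydroxylase, is different in that islets do express it. It was at 2.45, 1.56 and 2.01 CPM in control and 48.7, 18.6 and 9.33 CPM in KO pancreata, and at 42.9 to 149 CPM (median 94.2) in control and 51.4 to 217 CPM (median 157) in KO islets. KO pancreata were above all controls, and the islet groups overlapped over a wide range. The difference for Th was 3.22 (SE 0.838, adjusted p = 0.0288), lost when any 1 of pancreas control 02, 08 and 13 and pancreas KO 01 was left out (adjusted p up to 0.107) and with limma-voom and the robust fit (up to 0.309). The pancreas call of Th was lost with limma-voom (0.141). Gata2 and Eya1, transcription regulators on the same list, differed by 1.80 (SE 0.268) and 3.22 (SE 0.537), with adjusted p = 0.00147 and 0.00277. Eya1 was at 35.4 to 43 CPM in control islets, so it too was expressed there without an islet effect past the threshold.

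The 8 genes with the largest differences above, at a mean of 1 CPM or more in each tissue, included several known from neurons. That mean took control and KO libraries together, so a gene near 0 in control pancreata could reach it through the KO pancreata. Slc38a11 and B3gat1 were under 1 CPM in every control pancreas, and their fold changes rest on few control reads. Slc38a11, of the amino acid transporter families, went from 0.122, 0.151 and 0.154 CPM in control to 8.03, 3.42 and 1.11 CPM in KO pancreata and differed by 4.54 (SE 0.752, adjusted p = 0.0027). B3gat1, which makes a glycan epitope of nerve cells, went from 0.163, 0.201 and 0.36 to 6.96, 3.72 and 1.63 CPM and differed by 4.14 (SE 0.586). Faim2, Rit2, Atcay and Csmd2 differed by 4.25, 4.20, 4.16 and 3.97. They encode a Fas inhibitor, a neuronal GTPase, caytaxin, and a membrane protein with CUB and sushi domains. For Rit2 the call was lost when any 1 of pancreas control 08 and pancreas KO 01 was left out (adjusted p up to 0.0617) and with limma-voom (0.113).

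Of 10 Schwann and enteric glia genes and 12 smooth muscle and pericyte genes, 4 each rose in KO pancreata, as did 5.88% of all genes tested. A difference above was called for 3.25% of all genes tested. Of the glia genes 3 had a difference above, among them Fabp7, a lipid binding protein of glia, at 1.46 (adjusted p = 0.0486), lost in 12 of the 16 fits that left out 1 library, all but those without pancreas KO 19, islet control 829 and islet KO 803 and 812 (adjusted p up to 0.137) and with library totals and no low-count filter (up to 0.0518). Of the smooth muscle genes only Myh11, smooth muscle myosin, had a called difference, at 33.7, 30 and 22.2 CPM in control and 62.8, 94 and 86 CPM in KO pancreata. It was lowest in KO 01 among the KO pancreata, and its difference was 1.70 (SE 0.275, adjusted p = 0.00239). Acta2, smooth muscle actin, was at 101, 79.7 and 79.6 and 108, 149 and 132 CPM and did not pass (0.76, adjusted p = 0.127).

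Of 9 trefoil factor and receptor genes tested, 2 were above and 0 below (3.25% and 3.94% of all genes tested). Egfr, the receptor of epidermal growth factor, was at 26.7, 27 and 26.7 CPM in control and 30.8, 35.6 and 34.6 CPM in KO pancreata, and at 37.4 to 41.5 and 34.7 to 39.5 CPM in control and KO islets. KO pancreata were higher than controls by a little, with a difference of 0.42 (SE 0.0848, adjusted p = 0.00768). Lingo2, a leucine-rich repeat membrane protein, was at 0.0408, 0.1 and 0.154 CPM in control and 2.94, 1.68 and 0.369 CPM in KO pancreata. It was under 0.5 CPM in every islet library. Its difference of 4.65 (adjusted p = 0.0174) thus rests on few reads in control pancreata and in islets. The call was lost without pancreas control 02 (adjusted p = 0.0624).

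Far fewer genes differed through an effect in islets. Of 30 genes called in islets, 19 had a called difference, 17 with the islet effect above the pancreas effect and 2 with it below. The largest was Zfp423 (chr8:87661810-87959595, minus strand, mm10), a zinc finger transcription factor known from fat cell and cerebellar development. Zfp423 was at 1.76, 1.18, 0.873, 1.39 and 1.4 CPM in control islets 052, 826, 829, 857 and 858 and at 8.51, 91.5, 101, 129.6 and 83.8 CPM in KO islets 055, 122, 803, 812 and 845. In pancreata it was at 27.4, 18.6 and 25.9 CPM in controls and 21.4, 28.9 and 20 CPM in KO. Every KO islet lay above every control islet, KO 055 by the least, and the pancreas groups overlapped. The islet effect was 5.98 (SE 0.574), the pancreas effect -0.04 (SE 0.552) and the difference -6.02 (SE 0.821, adjusted p = 0.00075). With limma-voom the difference just missed the threshold (0.0554), and it was the only gene below with a difference over 2-fold by the test of that minimum.

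Aass (chr6:23072173-23132986, minus strand, mm10), a mitochondrial enzyme of lysine breakdown, was at 2.57, 1.73, 3.25, 3.33 and 2.89 CPM in control islets and 10.1, 6.98, 6.35, 8.06 and 6.6 CPM in KO islets, in the same order of libraries. It was at 9.22, 8.14 and 8.28 CPM in control and 7.94, 8.16 and 8.22 CPM in KO pancreata. The KO islets thus came close to the level of the pancreata, while the pancreas groups differed by less than their spread. The difference for Aass was -1.53 (SE 0.25, adjusted p = 0.0025). Nptx2, a secreted pentraxin of synapses, was at 1.05 to 2 CPM (median 1.75) in control and 2.19 to 8.47 CPM (median 4.89) in KO islets and differed by -2.05 (SE 0.463, adjusted p = 0.0149). Nog, a secreted inhibitor of bone morphogenetic proteins, had 0 reads in all 5 control islet libraries and 5, 3, 3, 4 and 2 reads in KO 055, 122, 803, 812 and 845. The pancreata held 22, 15 and 17 reads in controls and 17, 21 and 12 reads in KO. The difference passed (adjusted p = 0.00863) but, with 17 islet reads in all, no fold change is given.

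Smaller islet effects of the same direction came from genes with varied roles. Orc6, of the origin recognition complex, was at 17 to 18.6 CPM in control and 21.5 to 25.1 CPM in KO islets and differed by -0.45 (SE 0.0808, adjusted p = 0.004). Arl4c, a small GTPase, and Mapkapk3, a kinase activated by p38, differed by -0.81 and -0.67 (adjusted p = 0.00283 and 0.0108). Sgk1, a kinase induced by glucocorticoids, was at 22.9, 21.7, 23.6, 20.4 and 20.8 CPM in control and 34.7, 32, 35.4, 28.7 and 25.8 CPM in KO islets and differed by -0.68 (SE 0.152, adjusted p = 0.0147). No other of the 12 glucocorticoid responsive genes had a called difference, and 7.19% of all genes tested had one. The differences of Orc6, Arl4c, Mapkapk3 and Sgk1 lost the call on the pan-epithelial scale. The islet calls of Aass, Orc6 and Zfp423 held in all 16 fits that left out 1 library, and that of Zfp423 was lost with limma-voom (0.162). Those of Nptx2, Nog, Arl4c, Mapkapk3 and Sgk1 were lost in 8, 14, 4, 9 and 8 of these fits (adjusted p up to 0.12), for all 5 genes in the fits without islet control 826, islet control 857 and islet KO 803. Separate fits also ended the islet calls of Nptx2, Nog, Arl4c and Mapkapk3. The pan-epithelial scaling ended those of Arl4c and Sgk1, and limma-voom that of Arl4c (0.0596).

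**Figure D5:**
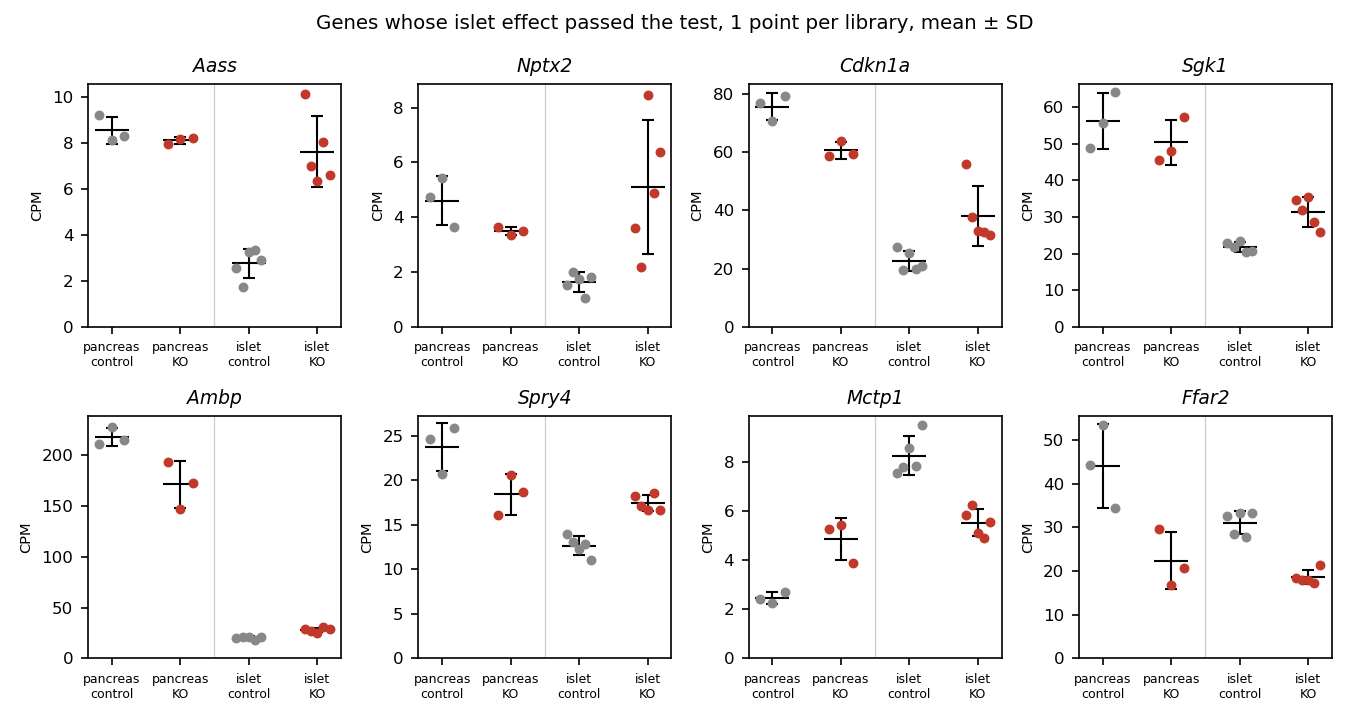
CPM in each library, with mean ± SD per group, of 8 genes whose islet effect passed the threshold. Aass, Nptx2, Cdkn1a and Sgk1 rise in KO islets without a called pancreas effect, Ambp and Spry4 rise in islets and fall in pancreata, Mctp1 does the reverse, and Ffar2 falls in both.

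Cdh23, Cldn2, Pik3r5 and Adm2 had large differences below without an islet call, and they differed in which tissue carried them. For Cdh23, a cadherin that overlaps Vsir by position, the difference was -2.30 (SE 0.489, adjusted p = 0.0109), lost with limma-voom (0.0631), from estimates of -0.95 in pancreata and 1.35 in islets that did not pass. Cldn2, a pore-forming claudin of ducts, was at 12.5, 8.34 and 17.6 CPM in control and 3.64, 13 and 8.59 CPM in KO pancreata, which overlapped, and at 1.4 to 1.95 and 2.23 to 4.34 CPM in control and KO islets, which did not. Its difference of -1.72 (adjusted p = 0.0328) was lost when any 1 of pancreas control 02 and 13, pancreas KO 19, islet control 826, 829 and 858 and islet KO 812 and 845 was left out (adjusted p up to 0.0838) and with separate fits (0.0557). Pik3r5, a regulatory subunit of phosphoinositide 3-kinase, and Adm2, a peptide of the calcitonin family, fell in pancreata (-0.92 and -1.27) and differed by -1.48 and -1.56 (adjusted p = 0.00681 and 0.0443). For Adm2 the called difference was lost in 12 of the 16 fits that left out 1 library, all but those without pancreas KO 18 and 19, islet control 829 and islet KO 803 (adjusted p up to 0.122) and with limma-voom, separate fits and library totals (up to 0.0981). Its pancreas call was lost when any 1 of pancreas control 02 and 13 and pancreas KO 01 was left out (adjusted p up to 0.129) and with limma-voom, separate fits and the pan-epithelial scaling (up to 0.102), and that of Pik3r5 was lost without pancreas control 08 (adjusted p = 0.0531) and with the pan-epithelial scaling (0.0779).

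Of 15 targets of the transcription factor p53, 4 had a called difference, all below (3.94% of all genes tested were below). In islets 3 rose, against 0.139% of all genes tested, and in pancreata 1 fell. The list had median effects of -0.07 in pancreata and 0.13 in islets. Its summed level was 725 to 777 CPM in control and 782 to 917 CPM in KO islets. In pancreata it was 937 to 973 CPM in controls and 915 to 916 CPM in KO, so the groups overlapped in neither tissue. Cdkn1a, the cell cycle inhibitor p21, was at 27.4, 19.5, 25.3, 19.7 and 21 CPM in control islets and 55.9, 37.6, 32.8, 32.4 and 31.6 CPM in KO islets 055, 122, 803, 812 and 845. In pancreata it was at 76.9, 70.6 and 79.4 CPM in controls and 58.6, 63.8 and 59.4 CPM in KO. Every KO islet lay above every control, KO 055 by far the most, while the KO pancreata lay below the controls. The islet effect passed (0.75, adjusted p = 0.0352), a call lost in 9 of the 16 fits that left out 1 library, all but those without pancreas control 08, pancreas KO 01 and 18, islet control 052 and islet KO 055, 812 and 845 (adjusted p up to 0.137) and with separate fits and the robust fit (up to 0.117). The pancreas effect did not (-0.32, adjusted p = 0.256), and the difference was -1.07 (SE 0.224, adjusted p = 0.00949). KO 055 also had the highest summed erythroid level of the islets, 218 CPM, and its part was not tested: without it the difference was -0.89 (adjusted p = 0.00317). Phlda3, an inhibitor of Akt, differed by -0.92 (adjusted p = 0.036), lost in 10 of the 16 fits that left out 1 library, all but those without pancreas KO 18, islet control 857 and 858 and islet KO 122, 812 and 845 (adjusted p up to 0.0979) and with library totals and the pan-epithelial scaling (up to 0.134). Eda2r, a receptor of the tumour necrosis factor family that was chosen after its values were seen, differed by -0.62 (adjusted p = 0.046), lost in 14 of the 16 fits that left out 1 library, all but those without islet control 052 and 858 (adjusted p up to 0.125) and with limma-voom, separate fits, TMM within each tissue, library totals and the pan-epithelial scaling (up to 0.429). Sesn2, a stress-induced regulator of mTOR signalling, fell in pancreata (-0.38) and differed by -0.50 (adjusted p = 0.00889), both lost on the pan-epithelial scale, where the pancreas effect turned to 0.05. The pancreas call was also lost with separate fits and library totals (0.062 and 0.0607).

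A change of sign with both effects past the threshold occurred in 3 genes, and in each of them at least 1 of the 2 single-tissue calls was lost under several alternatives. Ambp, the precursor of alpha-1-microglobulin and bikunin, was at 211, 228 and 215 CPM in control and 194, 147 and 173 CPM in KO pancreata, and at 20.2, 20.6, 20.7, 18 and 21.4 CPM in control and 28.9, 27.1, 24.6, 30.4 and 29.2 CPM in KO islets. It fell in pancreata (-0.35) and rose in islets (0.47), with a difference of -0.82 (SE 0.117, adjusted p = 0.00105). Spry4, a feedback inhibitor of fibroblast growth factor signalling, fell in pancreata (-0.37) and rose in islets (0.46), with a difference of -0.83 (SE 0.133, adjusted p = 0.00219). On the pan-epithelial scale the pancreas effects of Ambp and Spry4 turned to 0.09 and 0.06, while the differences still passed. The pancreas call of Ambp was lost when any 1 of pancreas control 08 and pancreas KO 18 was left out (adjusted p up to 0.0702) and with separate fits and library totals (up to 0.11). The pancreas call of Spry4 was lost when any 1 of pancreas control 02 and 13 and pancreas KO 01 and 19 was left out (adjusted p up to 0.127) and with separate fits and library totals (up to 0.125), and its islet call was lost in 9 of the 16 fits that left out 1 library, all but those without pancreas control 02, 08 and 13, pancreas KO 01, 18 and 19 and islet control 052 (adjusted p up to 0.0993) and with the pan-epithelial scaling (0.104). No other of 12 feedback genes of the fibroblast growth factor pathway had a called difference, and 7.19% of all genes tested had one.

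Mctp1, a calcium binding membrane protein with C2 domains, moved the other way. It was at 2.41, 2.26 and 2.73 CPM in control and 5.28, 5.46 and 3.9 CPM in KO pancreata, and at 7.56, 7.82, 8.59, 7.86 and 9.53 CPM in control and 5.86, 6.24, 5.13, 4.89 and 5.58 CPM in KO islets. No KO value overlapped the controls in either tissue. The pancreas effect was 0.98 (SE 0.158), the islet effect -0.58 (SE 0.108) and the difference 1.56 (SE 0.192, adjusted p = 0.000424), with the same sign under all 27 alternatives and past the threshold under all but the minimum fold of 2. The islet call of Mctp1 was lost in 11 of the 16 fits that left out 1 library, all but those without pancreas control 08, pancreas KO 01, 18 and 19 and islet KO 122 (adjusted p up to 0.143) and with library totals and the pan-epithelial scaling (up to 0.0672).

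Both effects passed with the same sign in 2 genes, and for neither was a difference called. Ffar2, a G protein-coupled receptor for short-chain fatty acids, fell in pancreata (-0.97) and in islets (-0.74), and its difference of -0.23 had an interval from -0.69 to 0.22. It was at 44.3, 53.6 and 34.5 CPM in control and 29.6, 16.9 and 20.6 CPM in KO pancreata, and at 32.5, 28.5, 33.3, 27.8 and 33.3 CPM in control and 18.5, 18.1, 17.9, 17.3 and 21.4 CPM in KO islets. Mlph, melanophilin, which links Rab27a to myosin, was at 7.79, 8.49 and 7.92 CPM in control and 2.1, 4.92 and 4.06 CPM in KO pancreata, and at 26.6 to 34.4 and 6.47 to 18.1 CPM in control and KO islets. Its effects were -1.15 and -1.55, and the difference of 0.40 ranged from -0.44 to 1.24. The islet call of Ffar2 was lost when any 1 of islet control 052, 826, 829 and 858 and islet KO 055, 122, 803 and 812 was left out (adjusted p up to 0.0993) and with library totals (0.0558). The pancreas call of Mlph was lost when any 1 of pancreas control 02, 08 and 13 and pancreas KO 01 and 19 was left out (adjusted p up to 0.134) and with limma-voom, separate fits and the pan-epithelial scaling (up to 0.0818). In both genes all KO values lay below all control values in each tissue.

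Several lists had no gene with a called difference: acinar transcription factors, genes disallowed in beta cells, mesothelium, fibroblast and matrix, macrophages, lymphocytes, erythroid cells, stomach and spleen stroma, proliferation, the unfolded protein response, immediate early genes and the circadian clock. Of all genes tested 7.19% had a called difference, and for lists this short the counts of called differences in this paragraph lie near that share. Some of their members changed in pancreata by the threshold. Of 7 mesothelium genes 4 rose there (median 0.60), against 5.88% of all genes tested, with islet estimates from -1.32 to 0.67. Of 9 erythroid genes 2 rose, and of 22 genes of the unfolded protein response 3 fell, where 7.2% of all genes fell. Lyz2, a lysozyme of macrophages, rose by 0.93 with a difference of 0.63 (interval -0.04 to 1.29). The pancreas call of Lyz2 was lost when any 1 of pancreas control 02 and 08 and pancreas KO 18 and 19 was left out (adjusted p up to 0.0865). The Notch list of 17 gave only Nrarp, a Notch target, at -0.63 (adjusted p = 0.0242), lost when any 1 of pancreas control 02 and 08 was left out (adjusted p up to 0.0763) and with library totals and the pan-epithelial scaling (up to 0.333). Of 12 liver genes only Hnf4a, a transcription factor that pancreas also expresses, was called (-0.37, adjusted p = 0.0448). That call was lost in 12 of the 16 fits that left out 1 library, all but those without pancreas KO 01 and 19, islet control 826 and islet KO 812 (adjusted p up to 0.0968) and with separate fits, TMM within each tissue and library totals (up to 0.191), and the value turned to 0.06 on the pan-epithelial scale. Alb, albumin, was at 24, 24.6 and 89.9 CPM in control and 543, 38.2 and 72.5 CPM in KO pancreata, so that its difference of 1.66 rests on KO 01 and became -0.32 without it.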

How the data were processed

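Raw counts of reads per gene were deposited in 1 table per tissue. Per the submitters' processing notes, Trimmomatic, STAR 2.6.0, HTSeq 0.11.1, edgeR and mm10 were used, with no role given for each, while neither annotation version nor strand setting is given in the sources used here. The tables were joined on 24091 symbols with identical coordinates. Total counts were 14866194 to 32385042 per library. No replicate pair of libraries agreed within sampling noise (chi-square per degree of freedom at least 4.90).

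edgeR 4.0.16 in R 4.3.3 fitted 4 group means to all 16 libraries, after its default low-count filter by group (15823 genes kept) and TMM scaling. Quasi-likelihood tests took the pancreas effect minus the islet effect and each effect, with Benjamini-Hochberg adjustment over all genes kept and a threshold of 0.05. CPM are TMM-scaled over kept genes, intervals are 95% and errors in parentheses are SE. Alternatives were DESeq2 1.42.0, limma 3.58.1 (voom with quality weights), separate or robust fits, other scalings and filters, a minimum fold of 2 and leaving out each library. The fit was tested on simulated counts with known changes.

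Genes named were Tff2, a panel, up to 8 per direction with the largest difference (mean of at least 1 CPM in each tissue) or the lowest p, up to 10 called in islets, those called in both tissues, and up to 3 called members per list, or its 2 most abundant members where none was called. Of 131 such genes 96 are in the text, with 4 chosen after their values were seen, and the others are not reported here. The members and lists were chosen with earlier results of these data known. Labels give separate animal numbers, and p-values measure the spread between these libraries. The fit shares each gene's dispersion over both tissues, so p-values of the pancreas effect also draw on the spread between islet libraries. The islet column headers read WT for libraries labelled as floxed controls. Promoter windows are RefSeq sequences matched by symbol.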

Additional observations from a re-analysis of the deposited data

Results flagged for a closer look

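The test of the difference itself set apart 514 genes with the pancreas effect above the islet effect and 623 with it below, and every gene named in the report as differing met the same criterion. With both effects past the threshold and of opposite sign, these were Mctp1 (1.56), Ambp (-0.82) and Spry4 (-0.83).

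Among 200 groups of 5 islet values of the named genes, 15 (7.5%) held 1 library far from the other 4, where chance gives about 1 in 20. Islet KO 055 was high for Cdkn1a (55.9 CPM), Flt1 (275 CPM) and Snap25 (241 CPM), and it also had the highest erythroid sum of the islets, 218 CPM. Islet control 857 was high for Dbh (1.27 CPM), Faim2 (5.17 CPM) and Kif5c (177 CPM). Islet KO 122 was high for Mlph (18.1 CPM) and low for Slc38a11 (2.73 CPM). Islet KO 845 was high for Ffar2 (21.4 CPM) and Stmn3 (16.8 CPM), and islet control 829 for Stard10 (128 CPM) and Adm2 (2.13 CPM). Islet controls 826 and 052 were low for Pcsk2 (5137 CPM) and Sesn2 (49.0 CPM), and control 858 was high for Cnn1, a smooth muscle calponin (0.680 CPM). Pancreas groups of 3 were not tested in this way.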

How the results depend on the processing

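No paired analysis was possible because the groups share no replicate numbers. The count of 1137 genes with a called difference was within 1.5 times under DESeq2, limma-voom, separate or robust fits, other TMM or size-factor scalings, library totals and other filters (838 to 1529). A minimum fold of 2 left 7, and the pan-epithelial scaling gave 8449. Leaving out 1 library gave 515 (without pancreas control 02) to 1186, with 680 without control 08 and 721 without KO 01. The pancreas count of 2070 became 916 in separate fits, 79 at a minimum fold of 2 and 10724 on the pan-epithelial scale, and it ranged from 1058 to 2085 (1058 without control 02 and 1250 without control 08). The islet count of 30 became 84 with DESeq2, 55 with limma-voom and 1 at a minimum fold of 2, and it ranged from 10 (without KO 803) to 33, with 17 without control 826 or 857, 12 without control 858, and 19 without KO 812 or 845. The cause of these shifts was not tested. The fits that leave a library out also have fewer samples.

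Of 199 gene values, 24 changed sign and 45 lost the call on the pan-epithelial scale, and 168 lost it at a minimum fold of 2. Differences that turned on the pan-epithelial scale were those of Ghrl (0.30), Rab27a (0.0974), Epcam (0.0899), Hnf4a (0.0644), Rpl4 (0.13), Rpl32 (0.0288), Atp5o (0.0214), Ndufv1 (0.12), Cox4i1 (0.0934) and Ffar2 (0.21). Pancreas effects that turned were those of Pdx1 (0.0427), Hes6 (0.0227), Rab27a (0.0925), Epcam (0.0895), Anxa4 (0.089), Hnf4a (0.11), Rpl4 (0.18), Rpl32 (0.10), Atp5o (0.11), Ndufv1 (0.16), Cox4i1 (0.092), Sesn2 (0.0524), Ambp (0.087) and Spry4 (0.0616). Leaving out 1 library, the difference for Tff2 ranged from -0.84 to 0.66 and turned to -0.84 without pancreas KO 18, -0.15 without islet control 857 and -0.0609 without islet KO 055, and that of Alb ranged from -0.32 to 2.58 and turned to -0.32 without pancreas KO 01. Depth limits genes with few islet reads (Dbh, Slc6a2, Nog, Lingo2), and 3 libraries a group limit the pancreas side.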
